A study of Mus musculus with 8 samples.

Results

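The genes described here are 10 genes of T cells and cytotoxic lymphocytes: the CD3 chains Cd3d, Cd3e and Cd3g, the coreceptors Cd8a and Cd4, the granzymes Gzma and Gzmb, the pore-forming protein perforin (Prf1), the granule membrane protein Nkg7 and the chemokine Ccl5. They were chosen by name, and a probe stood for a gene when its transcript accession mapped to that symbol. Of 16306 genes with a named probe, 9 of the 10 had one. No probe was matched to Cd8a, which was not analysed here. Where a gene had several probes, the brightest was used, and 8 of the 9 genes were above background on enough arrays (at least 4 of 8) to be tested, together with 12713 genes in all.

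RNA came from the mucosa of the middle colon (2.5 to 3.5 cm from the ileocecum) and of the rectum (the last 7 mm before the anus) of wild-type (WT) mice and of IL18ko mice, which carry a knockout of the gene for the cytokine interleukin 18. Groups of 5 brothers shared a cage until 10 to 12 weeks of age, when 2 of them were killed as controls. The other 3 were each moved to a cage of their own as an isolation stress and killed later, after 8 days by the design text or 16 days by the treatment protocol, which could not be settled. RNA of 5 mice was pooled for every tissue, genotype and housing, and each of these 8 pools was read on a single array, so no group has a replicate. The stressed mice were therefore also older than the controls, and age and isolation cannot be told apart. All colon arrays were on 1 slide and all rectum arrays on another, and these too cannot be told apart. The knockout check came out as labelled: the Il18 probe read 2.68 to 5.81 on the WT arrays, as log2 signal relative to the array's 75th percentile, and -8.01 to -7.62 on the IL18ko arrays. All levels below are on this scale, and a difference of 1 is a doubling of the signal.

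The arrays were alike in quality. Each had 43379 spots, none saturated, and 62.2% to 66.4% of the spots were well above background. The 75th percentile lay between 605 intensity units, on the WT stress rectum array, and 859 units. The epithelial surface protein gene Epcam read 5.18 to 5.27 on the colon arrays and 5.31 to 5.45 on the rectum arrays. It was slightly higher in the rectum in 4 of 4 pairs. Muscle and squamous markers were not shared evenly: the mean of 12 skeletal muscle genes was -3.89 to -2.24 in the colon. In the rectum it was -1.97 and -0.02 on the WT control and WT stress arrays, and 2.62 and 0.76 on the IL18ko control and IL18ko stress arrays. The mean of 5 squamous epithelium genes was -1.87 to -1.41 in the colon and -0.81 to 0.49 in the rectum.

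T cells recognise antigen through a receptor that is brought to the surface and coupled to signalling by the CD3 chains, with CD4 or CD8 as coreceptor. Cytotoxic T cells and natural killer (NK) cells kill by releasing granules, in which perforin opens the target cell and granzymes, which are proteases, start its death. The intestinal epithelium holds many intraepithelial lymphocytes, largely CD8-positive T cells that carry granzymes and express the chemokine gene Ccl5. Interleukin 18 is known as an activator of interferon gamma production and killing by NK and T cells. In RNA from whole mucosa, fewer cells of a type and less RNA per cell cannot be told apart.

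Between the tissues, both granzymes, Ccl5, Nkg7 and Cd3d were lower in the rectum. The difference was 3.85-fold for Ccl5, 2.36-fold for Nkg7 and 1.98-fold for Cd3d, each above background on all 8 arrays. The fit gave 11.0-fold for Gzma and 5.81-fold for Gzmb, but Gzma was above background on 1 and Gzmb on 3 of 4 rectum arrays, so these 2 sizes are not firmly measured. The other CD3 chains and Cd4 did not pass the test, and Cd3e and Cd4 had the opposite sign. The tissue test was a limma fit to the 4 pairs of arrays (rectum against colon within a mouse group), with adjusted p (Benjamini-Hochberg over all probes) under 0.05 as the call. It called 30.4% of all tested genes, 15.3% lower and 15.1% higher in the rectum. Against this background, 5 of the 8 tested members were lower and 0 were higher. Gzma, one of the 5, met the background filter through the colon arrays. Its p-value sets colon signals mostly against undetected readings, so its place in this count is no separate support. The median difference of the 8 was -1.11, beside 0.05 over all genes tested.

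**Figure D1:**
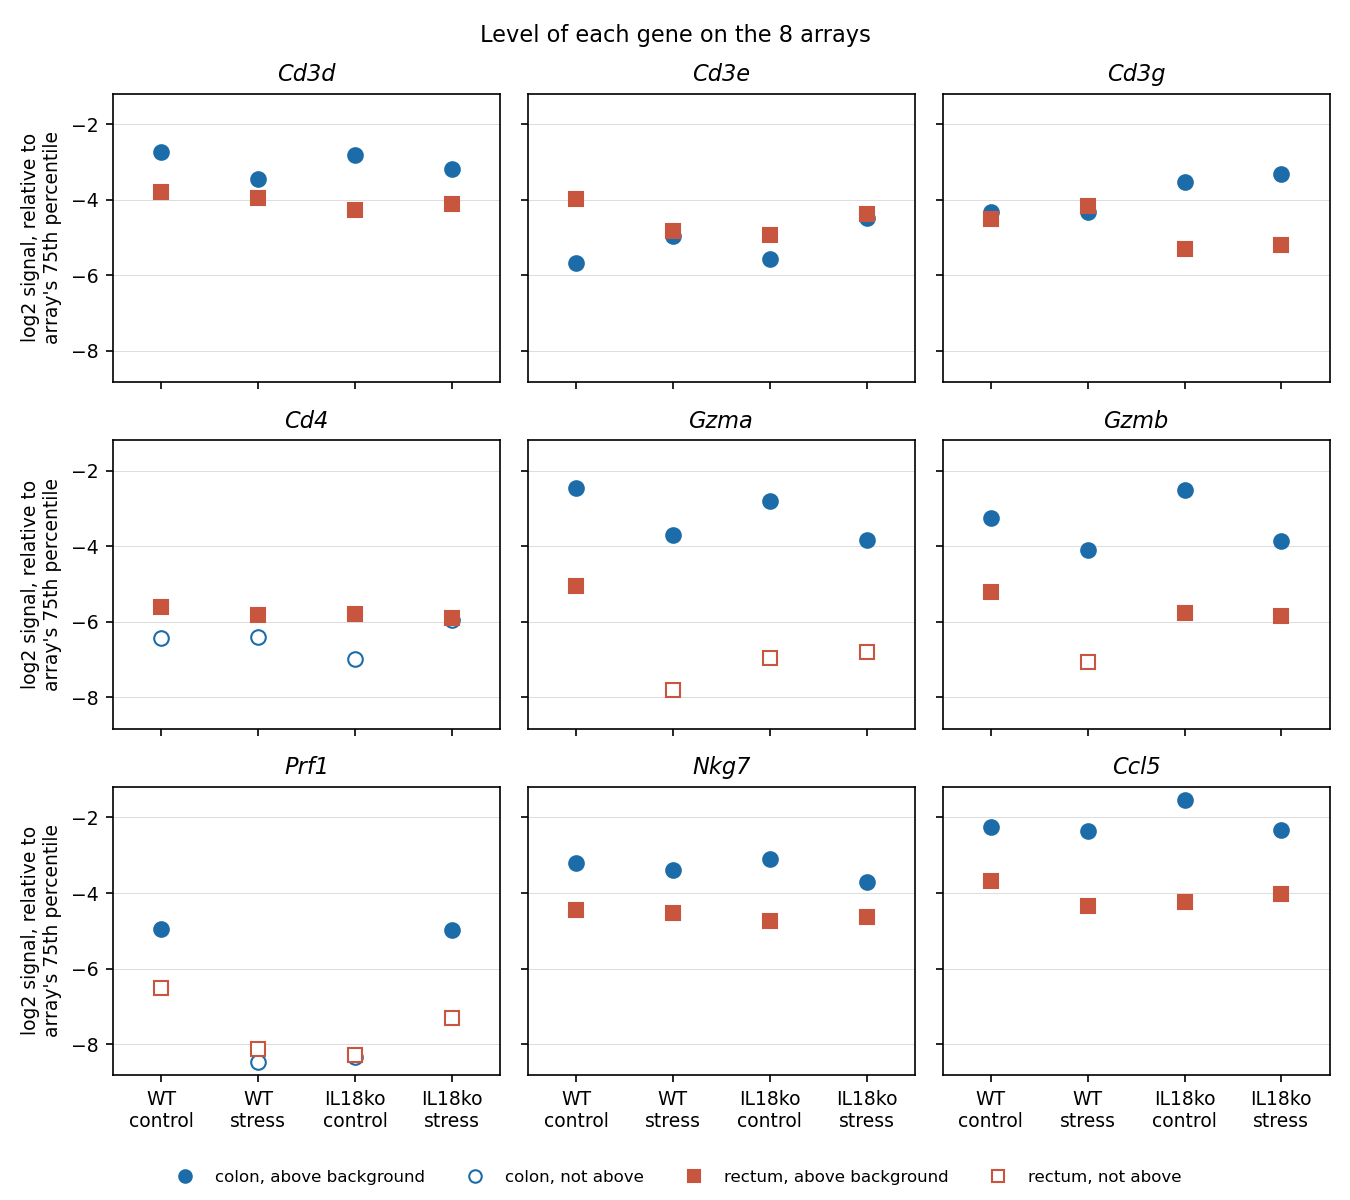
Level of the 9 genes with a probe on each array (log2 signal relative to the array's 75th percentile), with colon as circles and rectum as squares and open symbols for a probe not above background. Both granzymes, Nkg7, Ccl5 and Cd3d have all colon points above all rectum points, and Prf1 was above background on 2 colon arrays alone.

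Of the CD3 chains, Cd3d alone was called between the tissues. It read -2.72, -3.44, -2.82 and -3.19 in the colon of WT control, WT stress, IL18ko control and IL18ko stress mice, and -3.80, -3.96, -4.26 and -4.10 in their rectum. The 2 tissues did not overlap, and the rectum level was lower by 0.51 to 1.44 in 4 of 4 pairs. The fitted difference was -0.99 ± 0.18 (SE, 4 pairs; limma, adjusted p = 0.00937). The call was lost when a control pair was left out, though the difference changed little. It was -0.95 without the WT control pair (limma, adjusted p = 0.0588) and -0.83 without the IL18ko control pair (adjusted p = 0.0507). Those fits also called fewer genes in all, 1976 and 2139 against 3864. With another background correction (normexp) the difference was -0.52 and still called.

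Cd3e had the opposite sign. It read -5.66, -4.97, -5.56 and -4.47 in the colon and -3.98, -4.81, -4.94 and -4.38 in the rectum, in the same order of mouse groups. The rectum was higher in 4 of 4 pairs, but by 1.68 in WT controls and by only 0.10 in IL18ko stress mice, and the tissues overlapped. The difference of 0.63 ± 0.30 did not pass (limma, adjusted p = 0.161).

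The Cd3g values of WT pairs and IL18ko pairs lay apart. Cd3g read -4.31 and -4.32 in the colon of WT control and WT stress mice and -4.50 and -4.16 in their rectum, a difference of -0.19 and 0.16. In IL18ko mice it read -3.54 and -3.31 in the colon and -5.30 and -5.19 in the rectum, lower by 1.76 and 1.88. The difference over all pairs, -0.92 ± 0.39, did not pass (limma, adjusted p = 0.126). Leaving out the WT stress pair, the one in which the rectum was higher, gave -1.28 with an adjusted p of 0.0185 in limma. That fit called 5794 genes in all, against 3864.

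Cd4, the coreceptor of helper T cells, was close to the detection limit. Its brighter probe is printed 10 times per array, and in the colon 0 to 5 of the 10 spots were above background, so it was not above background on any colon array by the majority of its spots. It read -6.43, -6.40, -6.99 and -5.94 there and -5.60, -5.81, -5.79 and -5.90 in the rectum, where 5 to 9 spots were above background. All rectum arrays were above all colon arrays, a pattern seen in 18.1% of tested genes, but the nearest arrays were only 0.04 apart. Colon readings were also raised to at least the detection limit, the dimmest spot above background on each array. The mean rectum level was then 1.37-fold higher. This is no lower bound, since the IL18ko stress pair differed by only 0.04. The fitted difference of 0.67 ± 0.27 did not pass (limma, adjusted p = 0.115). The second Cd4 probe was not above background on any array.

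The 2 granzymes had the largest fitted differences of the 8 members, an order that turned with normexp, where Ccl5 had the largest. Gzma, a protease that cuts after basic residues, read -2.46, -3.69, -2.79 and -3.84 in the colon. In the rectum it read -5.05 in WT controls, and -7.79, -6.96 and -6.80 in the other groups, where it was not above background. The dimmest colon array was 1.21 above the brightest rectum array, and the pairs ran from -4.17 to -2.59. The fitted difference was -3.46 ± 0.32 (SE, 4 pairs; limma, adjusted p = 0.000544), and since only 1 of 4 rectum arrays measured the gene its size depends on how low signals are treated. It was -2.77 with a common floor and -0.86 with normexp, and called under both.

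Gzmb, the protease that activates caspases in the target cell, read -3.24, -4.10, -2.51 and -3.86 in the colon. In the rectum it read -5.21, -7.06, -5.76 and -5.84, and was not above background on the WT stress array. The tissues did not overlap, and the difference of -2.54 ± 0.27 was called (limma, adjusted p = 0.00102); with normexp it was -0.75 and still called. For both granzymes WT stress rectum was the dimmest of the 8 arrays, and it was also the array with the lowest 75th percentile. Any link between these was not tested.

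None of the other granzymes was called. Of 10 granzyme genes with a probe, 6 were above background on no array. Gzmm was above background on all 8 arrays, at -4.25 to -4.01 in the colon and -3.88 to -3.50 in the rectum. Its difference of 0.50 ± 0.15 had the opposite sign to that of Gzma and Gzmb and just missed the threshold (limma, adjusted p = 0.0513). Gzmd, above background on 5 arrays, differed by 0.37 ± 0.31 and did not pass (adjusted p = 0.411). The granzymes are close relatives, and whether a probe also binds a neighbour was not tested.

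Prf1 was above background on 2 of 8 arrays, the colon of WT control mice at -4.94 and of IL18ko stress mice at -4.98. On the WT stress and IL18ko control colon arrays it read -8.48 and -8.34, and in the rectum -6.53, -8.12, -8.30 and -7.30, none above background. It was too rarely detected to be tested, and no fold could be given. The 2 arrays that saw it share neither genotype nor housing, whereas both granzymes were brightest on the 2 control colon arrays.

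Nkg7, which takes part in granule release, read -3.21, -3.38, -3.11 and -3.70 in the colon and -4.45, -4.53, -4.74 and -4.63 in the rectum, with an SD of 0.12 over the 4 rectum arrays. The fitted difference was -1.24 ± 0.17 (SE, 4 pairs; limma, adjusted p = 0.00274), and it was -0.52 with normexp, still called. A second probe gave -1.33 ± 0.28 (limma, adjusted p = 0.0151), but it was above background on only 2 of 4 rectum arrays.

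Ccl5, a chemokine that draws T cells and NK cells, read -2.25, -2.36, -1.53 and -2.34 in the colon and -3.67, -4.33, -4.24 and -4.01 in the rectum. The tissues were separated by 1.31 between their nearest arrays. The difference of -1.94 ± 0.22 was called (limma, adjusted p = 0.00131), with pairs from -2.71 in IL18ko control mice to -1.43 in WT control mice. It was -1.13 with normexp, and called.

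**Figure D2:**
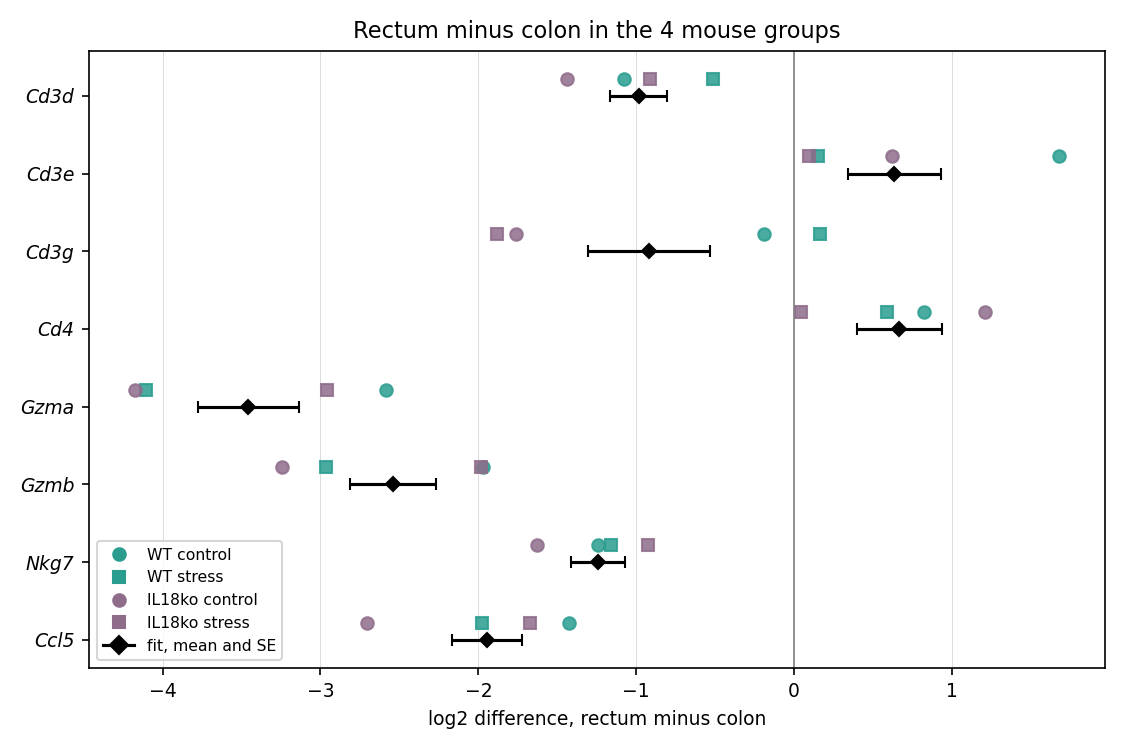
Rectum minus colon difference (log2) of the 8 tested genes, with each mouse group's pair as a coloured point and the limma mean with its SE as a black diamond. All pairs lie left of 0 for Cd3d, Gzma, Gzmb, Nkg7 and Ccl5 and right of 0 for Cd3e and Cd4, and Cd3g splits into WT pairs near 0 and IL18ko pairs below -1.7.

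Non-overlap between the tissues was a common pattern, with all rectum arrays below all colon arrays in 15.6% of tested genes, and 5 of the 8 members showed it. The promoters of 4 of the 5 members called lower in the rectum, all but Ccl5, which the table used did not hold, are shown to let their sequence be set beside the granzymes' larger difference. They are the 250 bases before the gene start in RefSeq (GRCm38.p6), given 5′ to 3′ on the gene's strand, and the table held 8 of the 10 members. Capitals mark TGTGGT or its reverse ACCACA, the core letters bound by RUNX factors, which are known regulators of cytotoxic T cells. Gzma lies at chr13:113100982-113101231 on the minus strand, Gzmb at chr14:56262335-56262584 on the minus strand, Nkg7 at chr7:43436888-43437137 on the plus strand and Cd3d at chr9:44981536-44981785 on the plus strand.
Gzma: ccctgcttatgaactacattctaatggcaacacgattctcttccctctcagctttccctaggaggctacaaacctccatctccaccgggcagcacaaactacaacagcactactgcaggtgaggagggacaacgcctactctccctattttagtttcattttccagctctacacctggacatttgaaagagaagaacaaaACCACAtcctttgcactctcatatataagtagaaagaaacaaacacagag
Gzmb: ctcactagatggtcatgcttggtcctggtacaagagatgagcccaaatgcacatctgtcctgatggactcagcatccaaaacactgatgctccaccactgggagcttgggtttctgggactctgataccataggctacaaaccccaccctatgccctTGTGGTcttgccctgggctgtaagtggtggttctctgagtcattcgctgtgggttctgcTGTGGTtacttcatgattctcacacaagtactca
Nkg7: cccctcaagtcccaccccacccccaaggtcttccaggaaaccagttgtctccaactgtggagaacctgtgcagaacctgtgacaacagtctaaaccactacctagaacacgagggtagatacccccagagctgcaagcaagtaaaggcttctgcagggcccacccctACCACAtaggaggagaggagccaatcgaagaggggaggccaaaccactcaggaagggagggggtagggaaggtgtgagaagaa
Cd3d: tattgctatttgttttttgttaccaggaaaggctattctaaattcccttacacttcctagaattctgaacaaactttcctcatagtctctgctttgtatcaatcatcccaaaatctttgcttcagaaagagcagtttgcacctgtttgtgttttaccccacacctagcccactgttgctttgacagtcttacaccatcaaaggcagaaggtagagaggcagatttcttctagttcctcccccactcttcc
The RUNX letters occurred once in the Gzma window, starting at -50 from the gene start, at -93 and -34 in Gzmb and at -83 in Nkg7. The Prf1 window held them at -130. They were in none of the Cd3d, Cd3e, Cd3g and Cd8a windows, and in 14.0% of 32851 windows of this length. The T-box letters GGTGTGA (3.33% of windows, either strand) were in Nkg7 alone of the 8, and the AP-1 letters TGANTCA (6.75%) in Gzmb alone. The ETS letters AGGAAG (29.5%) were in Cd3d, Cd3e, Nkg7 and Prf1, the E-box letters CAGGTG (17.2%) in Cd3d, Cd3g, Gzma and Prf1, and the GATA letters AGATAA (9.99%) in Cd3g. A match describes the sequence and says nothing of whether a factor binds there.

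Wider gene lists were set beside the members, and over all genes tested 15.3% were called lower in the rectum and 15.1% higher. Of 19 tested genes of the cytotoxic list (other granzymes, granule and release genes and NK receptors; 37 genes, 35 with a probe), 8 were called lower in the rectum, 0 higher and 11 did not pass, with a median of -0.80. The list's mean level was -3.69 to -3.41 on the colon arrays and -4.63 to -4.07 on the rectum arrays. Xcl1, a chemokine released by activated CD8 T cells and NK cells, was not above background on any rectum array. With the rectum at its detection limit it was 3.32-fold lower. In the same way Crtam, an adhesion molecule of activated cytotoxic cells, was 1.94-fold lower and Klrg1, an inhibitory receptor of effector cells, 1.38-fold lower (limma, adjusted p = 0.00253, 0.0308 and 0.00848). Such folds are approximate, since the limit is the dimmest spot above background on each array. Xcl1, Crtam and Klrg1 were above background in the colon alone and met the filter through it. Their p-values set colon signals against undetected readings, and their place among the 8 calls is no separate support. Klrd1, the CD94 chain of NK receptors, was lower by 0.20 to 1.89 in 4 of 4 pairs (-1.29 ± 0.28, adjusted p = 0.0167). The other called genes were Ctsw, a protease of cytotoxic cells, the granule release genes Unc13d and Rab27a, and Tbx21, the transcription factor T-bet.

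The list of T cell receptor partners and signalling genes had calls in both directions. Of 19 tested genes (32 listed, 29 with a probe), 5 were called lower, 4 higher and 10 did not pass, with a median of 0.06. These shares were 26.3% lower and 21.1% higher, beside 15.3% and 15.1% over all genes tested. The lower ones were Cd7 (-1.75 ± 0.21, adjusted p = 0.00145), the kinase gene Prkcq (-1.72 ± 0.17, adjusted p = 0.000773), the adaptor gene Skap1 (-1.43 ± 0.14, adjusted p = 0.000709), the kinase gene Lck (-1.43 ± 0.16, adjusted p = 0.00126) and Satb1, a chromatin organiser. Lck starts signalling from the receptor, and it read -1.54 to -0.87 in the colon and -2.96 to -2.26 in the rectum. The higher ones were Thy1, which connective tissue cells also express, and the transcription factor genes Tcf7, Lef1 and Bcl11b. The CD8 beta chain gene Cd8b1, picked after the values were seen because no Cd8a probe was matched, overlapped between the tissues, at -5.82 to -4.50 in the colon and -5.39 to -4.69 in the rectum (0.20 ± 0.37, adjusted p = 0.721).

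Among 21 tested genes for homing and the intraepithelial niche, 2 were called lower, 4 higher and 15 did not pass. These shares, 9.52% lower and 19.0% higher, were near those over all genes tested, 15.3% and 15.1%. H2-T3 encodes the thymus leukemia antigen, which binds CD8 alpha on intraepithelial lymphocytes. It read -0.96 to -0.10 in the colon and was not above background on any rectum array. With the rectum at its detection limit it was 56.5-fold lower (limma, adjusted p = 5.42e-06). Cxcl9, a chemokine induced by interferon gamma, was 3.89-fold lower in the same way (limma, adjusted p = 0.000197). Both genes met the filter through the colon arrays alone, so these p-values set signals against undetected readings. The cytokine genes Il15 (1.07 ± 0.14, adjusted p = 0.00199) and Il7 (0.80 ± 0.24, adjusted p = 0.0481), which sustain lymphocytes, were higher in the rectum, as were the chemokine gene Ccl28 and the adhesion gene Cdh1.

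Among 13 tested helper subset genes, 1 was lower, 4 higher and 8 did not pass. These shares were 7.69% lower and 30.8% higher, beside 15.3% and 15.1% over all genes tested. The lower gene was Il18r1, a receptor chain for interleukin 18 (-1.65 ± 0.29, adjusted p = 0.00751). Il18r1 was above background on 4 of 4 colon arrays but on only 1 of 4 rectum arrays. Its p-value thus sets colon signals mostly against undetected readings, and its size is not firmly measured. Cxcr5, of follicular helper and B cells, was higher by 1.24 ± 0.20 (limma, adjusted p = 0.00554) and Ccr6 by 1.23 ± 0.18 (adjusted p = 0.00388), and Pdcd1 was called too. Ikzf2 was 2.01-fold higher with colon readings raised to at least the detection limit (limma, adjusted p = 0.0353). It met the filter through the rectum arrays alone, so this p-value sets signals against undetected readings.

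Markers of other cells gave these counts, by the brightest probe of each gene, where 15.3% of all genes tested were lower and 15.1% higher. Of 17 tested genes shared by all leukocytes, 2 were higher, 1 lower and 14 did not pass, with a median of 0.26, and the mean level was -2.22 to -1.87 in the colon and -2.04 to -1.68 in the rectum. Ptprc, the gene for CD45 on all leukocytes, disagreed between its probes: the brightest did not pass (-0.59 ± 0.29, adjusted p = 0.186), and a dimmer one, above background on all 8 arrays, was called lower in the rectum (-0.98 ± 0.19, adjusted p = 0.0112). Macrophage and dendritic genes were higher in 5 of 10 and lower in 0, and B cell genes higher in 3 of 9 and lower in 1. For Cd79a only 1 array, of WT control colon, was above background, and no probe of Csf1r was matched. Neutrophil genes were higher in 3 of 5 and lower in 0, with S100a9, a calcium-binding protein also made by squamous epithelium, higher by 5.03 ± 0.31. Mast cell genes were higher in 3 of 6 and lower in 2, with the protease gene Cpa3 higher by 2.17 ± 0.37. Cpa3 was above background on only 1 of 4 colon arrays, so this size is not firmly measured. The platelet chemokine gene Pf4 was higher by 1.48 ± 0.29, 1 of 2 tested platelet genes. Epithelial genes were higher in 2 of 12 and lower in 3, with Epcam at 0.17 ± 0.08 not passing. Skeletal muscle genes were higher in 7 of 12, with Ckm at 1.04 ± 0.48 not passing, and squamous genes in 3 of 5, with Krt5 at 2.45 ± 0.74 not passing. The part of these other cells in the members' tissue difference was not tested.

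**Figure D3:**
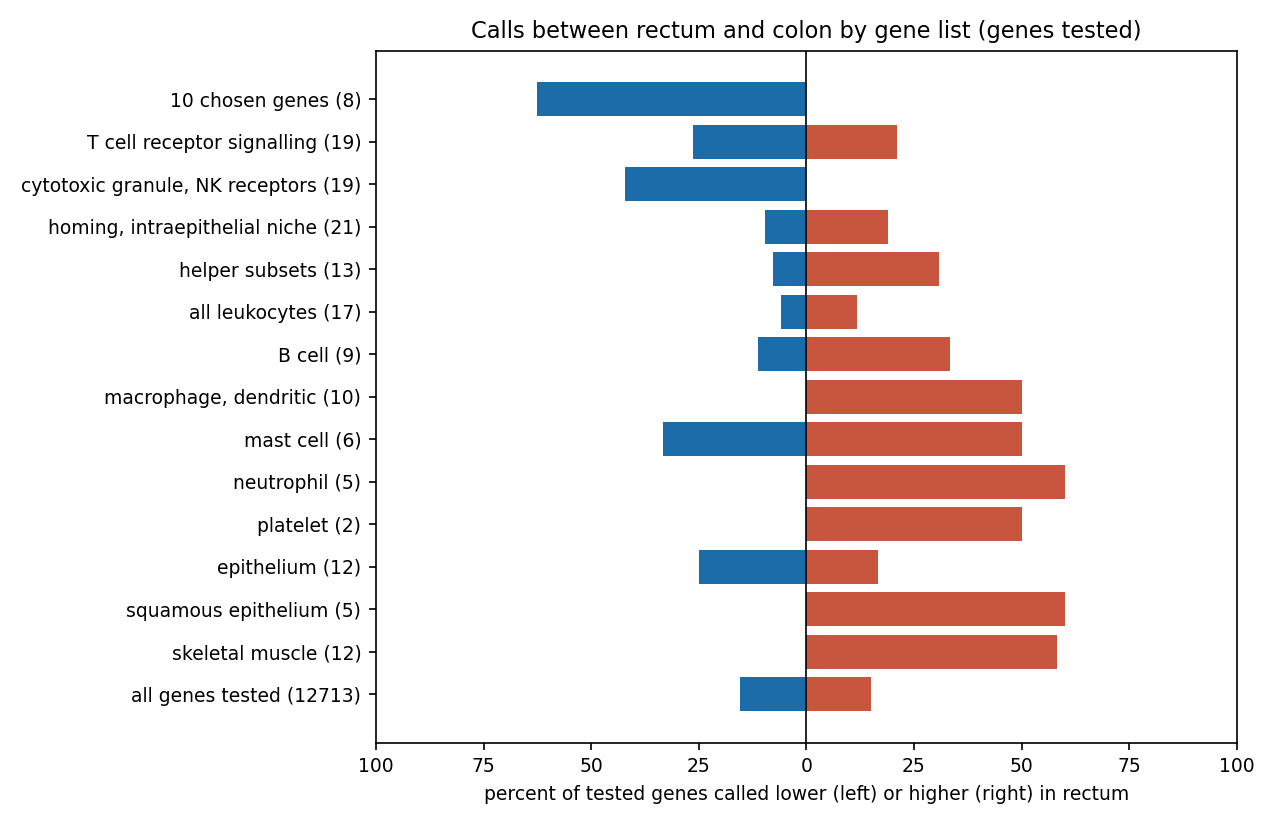
Percent of the tested genes of each list (number tested in brackets) that limma called lower (left, blue) or higher (right, red) in the rectum. The cytotoxic list has 8 of 19 genes lower and 0 higher, the all-leukocyte list 1 of 17 lower and 2 higher, and over all genes 15.3% were lower and 15.1% higher. Of the lower cytotoxic genes, Xcl1, Crtam and Klrg1 were above background in the colon alone.

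Housing alone gave no call. In the limma fit of tissue, genotype and housing to the 8 arrays, 0.0% of genes passed, with 398 of 12713 genes under an unadjusted p of 0.05, and 8 genes were called when the 4 tissue means were fitted in place of the 8 arrays. None of the 8 members passed, and 2 had an unadjusted p under 0.05. These were Gzmb, at -1.04 ± 0.28 under stress, and Gzma, at -1.21 ± 0.41, each with an adjusted p of 0.899 in limma, and with normexp the differences were -0.21 and -0.24. The values per array show where these differences lay.

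In the colon, Gzma went from -2.46 to -3.69 in WT mice and from -2.79 to -3.84 in IL18ko mice, 42.8% and 48.4% of the control signal. Gzmb went from -3.24 to -4.10 in WT mice and from -2.51 to -3.86 in IL18ko mice, 55.0% and 39.3% of the control signal. Both control colon arrays were thus above both stress colon arrays for each granzyme, and the mean colon difference was 2.20-fold for Gzma and 2.15-fold for Gzmb. Of all tested genes, 0.244% had a lower mean colon difference than Gzma had and 0.275% a lower one than Gzmb. A level lower under stress in both colon pairs and 2-fold or more on average, a rule set after these values were seen, was met by 0.283% of tested genes, 36 in all, and by 2 of the 8 members. At these signals, spots of one probe on one array differed with an SD of 0.08 to 0.14, but this leaves out the spread between pools, which these arrays cannot give.

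The other members did not follow one course in the colon. Cd3d was lower under stress in both colon pairs, by 0.72 in WT and 0.37 in IL18ko mice, Ccl5 by 0.11 and 0.81, and Nkg7 by 0.17 and 0.59. Cd3e was higher in both colon pairs, by 0.69 and 1.08, and Cd4 by 0.03 and 1.05 at signals not above background. Cd3g differed by -0.01 and 0.23. So 5 of 8 members were lower in both colon pairs and 2 higher, where 19.8% of all tested genes were lower in both and 26.1% higher in both. The cytotoxic list had 3 of 19 genes lower in both colon pairs and 2 higher, with none lower by 2-fold, and the T cell receptor list 6 of 19 lower and 1 higher, Lck among them (-0.38 ± 0.15 over all arrays, adjusted p = 0.899).

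In the rectum the pairs disagreed. Under stress, Gzma differed by -2.74 in WT mice, from a measured level to one not above background, and by 0.17 in IL18ko mice between 2 arrays not above background. Gzmb differed by -1.86 in WT and -0.08 in IL18ko mice. Gzmb was thus the only one of the 8 members lower under stress in 4 of 4 pairs, which 5.72% of tested genes were. The WT stress rectum array, which gives both large rectum differences, was the one with the lowest 75th percentile, and any link between these was not tested.

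**Figure D4:**
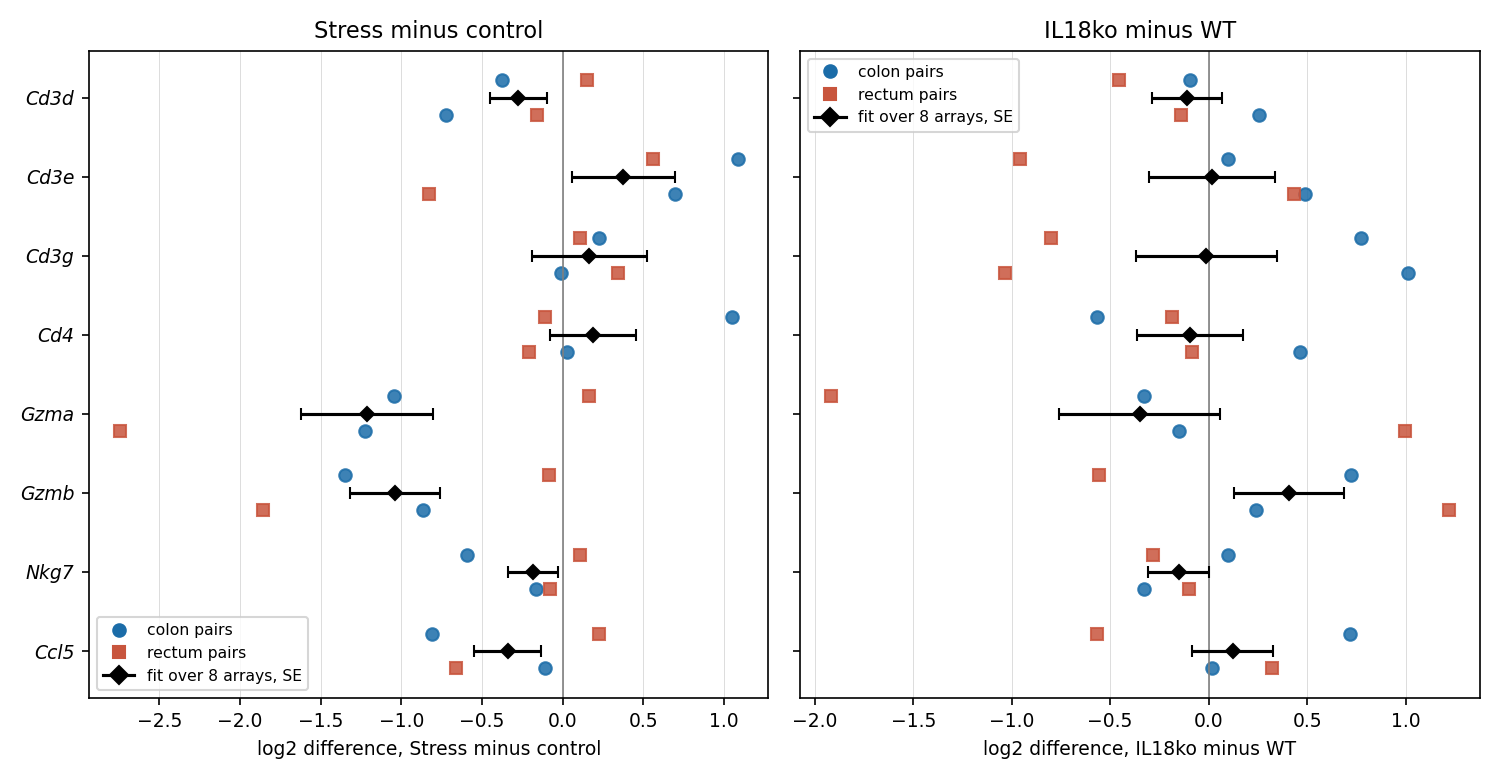
Differences (log2) between stress and control (left) and between IL18ko and WT (right) for the 8 tested genes, with colon pairs as circles, rectum pairs as squares and the limma estimate with its SE as a black diamond. On the left the upper point of each colour is the IL18ko pair and the lower the WT pair, and on the right the upper is the control pair and the lower the stress pair. The colon points of both granzymes lie below -0.8 under stress, and those of Cd3g lie above 0.7 in the colon and below -0.7 in the rectum for IL18ko.

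No member passed between the genotypes. The genotype comparison called 17 genes, 0.134% of those tested (8 higher, 0.0629%, and 9 lower, 0.0708%, in IL18ko), and 0 of the 8 members; 2783 genes but 0 members had an unadjusted p under 0.05. The fit to 4 tissue means called 1665 genes and no member. The largest fitted differences among the members were 0.41 ± 0.28 for Gzmb and -0.35 ± 0.41 for Gzma (limma, adjusted p = 0.452 and 0.670). The colon pairs of Gzma were -0.33 and -0.15, and its rectum pairs, -1.92 and 0.99, each had at least 1 array not above background. The colon pairs of Gzmb were 0.72 and 0.24 and its rectum pairs -0.55 and 1.22, the last from an array not above background. Nkg7 had the tightest pairs, from -0.33 to 0.10, and a fitted difference of -0.15 ± 0.16.

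The 3 CD3 genes lie side by side on chromosome 9, on the same chromosome as Il18 and 35 to 37 tested genes away from it. In the stretch of 74 tested genes within that distance of Il18, 5 were called for genotype, 6.76%: Fxyd6, Apoc3, Nxpe4, Nxpe2 and Atm. The CD3 chains were not among them, at -0.11 ± 0.18 for Cd3d, 0.02 ± 0.32 for Cd3e and -0.01 ± 0.36 for Cd3g.

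The Cd3g pairs had opposite signs in the 2 tissues. In IL18ko colon it was higher than in WT by 0.77 in control and 1.01 in stressed mice, and in IL18ko rectum it was lower by 0.80 and 1.03. The genotype difference in rectum minus that in colon was -1.81 ± 0.30, which did not pass over all genes (limma interaction, adjusted p = 0.680; 0.0% of genes called, 558 with an unadjusted p under 0.05). Without the WT control rectum array the adjusted p was 0.0331, but that fit called 1686 genes. A sign that was higher in IL18ko colon and lower in IL18ko rectum in both pairs was seen in 4.0% of tested genes, and in 1 of the 8 members. None of the other T cell genes passed either. In IL18ko rectum 10 of 19 cytotoxic genes and 8 of 19 T cell receptor genes were lower in both pairs, where 28.9% of all tested genes were. So were 5 of 9 B cell genes, 8 of 17 all-leukocyte genes, 9 of 21 homing genes and 4 of 10 macrophage and dendritic genes. In IL18ko colon, 10 of 19 T cell receptor genes were higher in both pairs, where 33.8% of all tested genes were. On the same IL18ko rectum arrays 12 of 12 skeletal muscle genes were higher than in WT in both pairs, with a median of 2.91, and the part of this in the lower lymphocyte signals was not tested.

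Of the 4 wider lists of T cell genes, none had a gene called for genotype or housing. The cytotoxic list had a median genotype difference of -0.21 beside 0.00 over all genes. Of its genes, 5 of 19 were under an unadjusted p of 0.05 in limma, near the 21.9% of all tested genes. Xcl1, Klrd1 and Cxcl9 were lower in IL18ko mice in 4 of 4 pairs, at -0.91 ± 0.35, -0.76 ± 0.27 and -0.60 ± 0.20, and did not pass (limma, adjusted p = 0.203, 0.176 and 0.158). For Xcl1 and Cxcl9 the rectum pairs set arrays against each other that were not above background. Their colon pairs, in control and stressed mice, were -0.75 and -0.08 for Xcl1 and -0.37 and -1.0 for Cxcl9. The gene for interferon gamma, Ifng, named after its values were seen, was above background on 2 colon arrays and no rectum array and was not tested.

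The genes with the profile nearest to the mean of the 3 CD3 chains over the 8 arrays were Slc5a7, Nckap5, Tcf23, Fam98b and St8sia1, by root mean square distance of centred levels (0.16 to 0.19), and none of them was called between tissues. Cd3e had the opposite tissue sign to Cd3d and Cd3g, so a gene near this mean need not resemble any single chain. Nearest to the mean of both granzymes were Arg2, Chrnb4, Cst6, Hoxb7 and Slc2a10, at 0.41 to 0.56, all called lower in the rectum. Of 12711 genes ranked for the granzymes, Ccl5 came 73rd, Nkg7 563rd, Cd3d 737th and Cd3g 1426th, while Cd3e and Cd4 came 11332nd and 11393rd. Such a distance over 8 arrays mostly follows the tissue difference.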

How the data were processed

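Per the file headers, each array's spot intensities were background-corrected on a linear scale with Feature Extraction 9.5.1.1; the labels describe 1-colour (Cy3) arrays. The value table deposited by the authors gives, per the labels, each array's ratio (linear) over WT control colon, and in log2 it correlated with the scanner ratio at 0.995 to 1.000 over 18277 probes; how the authors scaled it is not given in the sources used here.

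Outlier spots were left out and spots averaged per probe (40963 of 41174 probes; 22850 named through transcript accessions). Log2 intensity was set relative to each array's 75th percentile. Tested were probes with the majority of their spots well above background on 4 or more of the 8 arrays (26263 probes, 12713 genes); the brightest tested probe stood for its gene. Tissue was tested on 4 paired differences, and genotype and housing in an additive fit to 8 arrays, with 1 interaction added for effects by tissue, all with limma 3.58.1 (R 4.3.3), a variance trend and Benjamini-Hochberg adjustment over all probes. The pairing assumes that the colon and rectum pools hold the same mice, which the labels do not say. The p-values for genotype and housing measure the spread between pools of different tissue and group, since no group has a replicate. That additive fit has no term for the mouse group and counts its colon and rectum arrays as independent. Its SEs and p-values therefore leave out any pairing, which the fit to 4 tissue means avoids. That fit has only 1 residual degree of freedom, so its p-values rest nearly all on the variance shared between genes. Promoter letters were searched on both strands with Python 3.11.15, numpy 2.4.6 and pandas 2.3.3, and figures were drawn with matplotlib 3.10.9. The fits were tested on simulated data.

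The members and gene lists were chosen with earlier results of these data known, and support nothing by their choice. Named beside the members were up to 4 called genes with the largest difference in each T cell list and comparison, the 5 nearest profiles, and 10 markers of other cells, 1 of which is not reported here. Alternatives were median centring, quantile normalization, normexp (offset 50), the deposited ratios, other background filters, a common floor, no variance trend, the mean of probes, other fits, each tissue alone and leaving out arrays.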

Additional observations from a re-analysis of the deposited data

Results flagged for a closer look

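Cd3g differed between IL18ko and WT in opposite directions in the colon and the rectum, in both pairs of each tissue. The IL18ko minus WT difference in the rectum minus that in the colon was -1.81 ± 0.30 on the log2 scale, with an adjusted p of 0.680 in limma, and -1.93 to -0.88 over the alternatives run.

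Cd4 differed between stress and control in opposite directions in the colon and the rectum in both pairs. The stress minus control difference in the rectum minus that in the colon was -0.70, with an adjusted p of 1.0 in limma. The colon levels behind it were not above background, and with normexp the value was -0.02.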

How the results depend on the processing

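The tissue calls of Gzma, Gzmb, Nkg7 and Ccl5 held under every alternative in which the gene was tested (13, 13, 14 and 15 of them). Gzma and Gzmb were not tested under the filter that asks for all 8 arrays above background. With the deposited ratios, neither granzyme nor Nkg7 was tested. Cd3d held in 12 of 14, Cd3g passed in 1 of 14, and Cd3e and Cd4 in none. The number of genes called between tissues was 3864, 4499 for 8 arrays without pairs and 1976 to 5794 with a pair left out. Median centring moved its split from 1923 higher and 1941 lower to 2072 and 1807.

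For genotype the number called was 17, and it was 36 with median centring (9 higher, 27 lower), 41 with quantile normalization, 9 with the deposited ratios, 10 with no variance trend, 31 with the mean of the probes of a gene and 1665 with 4 tissue means. It was 2 to 1952 with an array left out, 1952 without WT stress rectum. For housing it was 0, and 8 with 4 tissue means. For genotype by tissue it was 0, and 0 to 1686 with an array left out, of which 1686 without WT control rectum and 4 without IL18ko stress rectum; these and the alternatives of Cd3g and Cd4 by tissue were chosen after seeing the data.

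No member passed for genotype or housing under any alternative, and small differences changed sign. For genotype, Cd3e was -0.056 with median centring, -0.034 with quantile normalization and -0.0093 with normexp, Cd3g 0.051 with normexp and Cd4 0.030 with the common floor. With an array left out Cd3d ran from -0.27 to 0.046, Cd3e from -0.23 to 0.39, Cd3g from -0.28 to 0.26, Cd4 from -0.32 to 0.11, Gzma from -0.71 to 0.060 and Ccl5 from -0.058 to 0.32. For housing, Cd4 was -0.023 with the common floor, and with an array left out Cd3g ran from -0.10 to 0.44 and Cd4 from -0.036 to 0.30. The cause of these changes was not tested. The pairs of the tissue test are the mouse groups; the labels give no replicate numbers, so no fit with a replicate number as a block was made.

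Each group is 1 pool on 1 array, so the spread between mice is not measured. Signals at -7 to -6 had a median SD of 0.42 between single spots of a probe, against 0.12 at -4 to -3. Prf1 and the granzymes have 1 spot per array, so Prf1 and the rectum granzymes are read with low precision. The brighter Cd4 probe is a mean over its 10 spots, less outliers, so this SD overstates the spot error of its level.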
